A study of Drosophila melanogaster with 4 samples.

Results

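The muscle sarcomere genes described here are 10 Drosophila genes picked by name: Act57B, Act87E, Tm2, up, wupA, Mhc, Mlc1, Mlc2, Prm and bt. They were picked with earlier results of these data known, so counts of them set against all genes are not an unbiased contrast. All 10 were found among the 13990 genes of the deposited table, which gives 1 FPKM value per gene for each of 4 RNA-seq libraries. FPKM counts sequenced fragments per transcript length and per library size. The RNA came from wing discs of wandering third-instar larvae kept at 25 °C, and each library pooled discs of 1 genotype, with 80 to 100 discs per pool in the labels' protocol, which states that number for GFP and for a Tai genotype without Yki and not for the other pools here. The Yki+Tai library carried the Hippo-pathway coactivator Yorkie (Yki) together with the ecdysone receptor coactivator Taiman (Tai). The Yki+Tai-IR library carried Yki with an inverted-repeat (IR) RNA interference construct against tai, the Yki library carried Yki alone, and the GFP library carried the marker alone. All 4 genotypes, GFP included, expressed GFP under engrailed control, which marks the posterior compartment of the disc, so every library mixes cells with and without the transgenes. With 1 library per genotype there is no replicate and no test, and every value below describes these libraries.

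The sarcomere is the contractile unit of striated muscle. Actin thin filaments, wrapped by tropomyosin and the troponin complex, slide along myosin thick filaments, and giant titin-like proteins tie the thick filaments to the Z discs. The wing disc of the larva is an epithelium that holds no finished muscle of its own. Adepithelial myoblasts lie under its notum region and build the flight muscles later, in the pupa, while the contracting muscles of the larva lie outside the disc.

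Low FPKM values come in steps of 1 fragment, and the size of the steps gave the depth. It was about 12520000 fragments for Yki+Tai, 8300000 for Yki+Tai-IR, 9580000 for Yki and 8050000 for GFP. Transcript of yki stood at 4535 FPKM in Yki+Tai, 2563 in Yki+Tai-IR, 5034 in Yki and 71.5 in GFP. Transcript of tai stood at 1260 FPKM in Yki+Tai, 22.9 in Yki+Tai-IR, 25.0 in Yki and 27.1 in GFP. For yki the level in Yki+Tai-IR was 0.509 times that in Yki (95% counting interval 0.502 to 0.517), and for tai it was 0.916 times (0.855 to 0.981). The Yki+Tai-IR and Yki libraries thus differ in the yki level as well as in the construct against tai, and their parts in any difference cannot be told apart. All intervals cover counting error only, not differences between pools of discs.

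The sarcomere genes were scarce in every library, and most were highest in Yki+Tai-IR. Summed over the 10 genes, the level was 20.4 FPKM in Yki+Tai, 68.3 in Yki+Tai-IR, 22.4 in Yki and 52.8 in GFP, resting on about 523, 908, 369 and 657 fragments in that order. The Yki+Tai and Yki libraries, which were the deepest, held similar low sums. The actin genes Act57B and Act87E made up 29.7% of the sum in Yki+Tai, 44.8% in Yki+Tai-IR, 44.6% in Yki and 61.5% in GFP. Without them, an alternative added after the data were seen, the sum was 14.4 FPKM in Yki+Tai, 37.7 in Yki+Tai-IR, 12.4 in Yki and 20.3 in GFP, so that Yki+Tai stood at 0.705 times GFP instead of 0.387 times. Of the 10 genes, 8 were highest in Yki+Tai-IR, 1 in Yki+Tai (bt) and 1 in GFP (Act87E). The lowest value lay in Yki for 5 genes, in Yki+Tai for 4 and in GFP for 1 (Mlc2). The median member stood at 0.920 FPKM in Yki+Tai, 5.36 in Yki+Tai-IR, 0.617 in Yki and 2.19 in GFP. In whole discs, fewer cells of a type and less RNA per cell cannot be told apart.

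**Figure D1:**
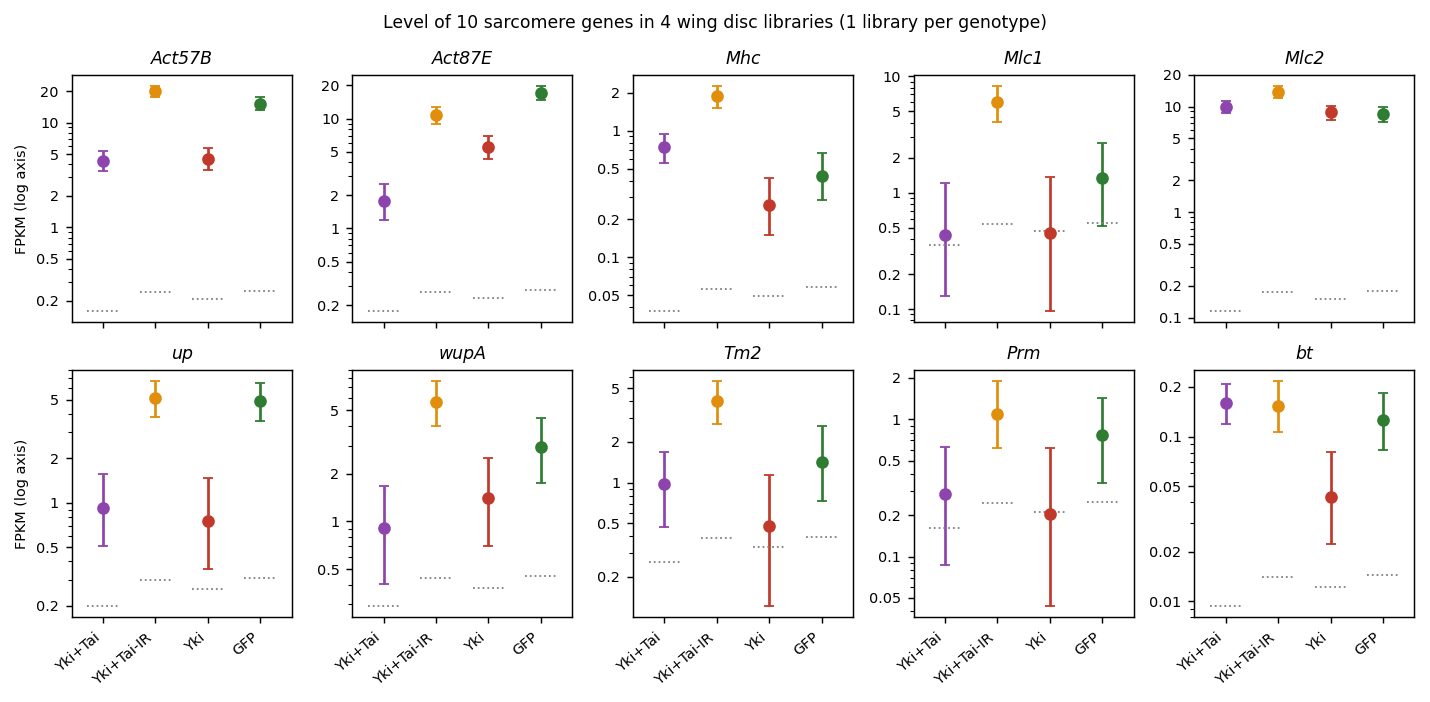
Level of each of the 10 sarcomere genes in FPKM (log axis) in the Yki+Tai, Yki+Tai-IR, Yki and GFP libraries, with bars for the exact 95% Poisson interval of the estimated fragments and dotted lines at the level of 3 fragments. Yki+Tai-IR holds the highest point for 8 of the genes, and Mlc1 and Prm in Yki lie just under the dotted line.

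Of the 5 thin filament genes 4 were highest in Yki+Tai-IR, and none was lowest there. Act57B (FBgn0000044, chromosome 2R, 20944021 to 20946431 in dm6) encodes a muscle actin used in larval muscle. It stood at 4.31 FPKM in Yki+Tai, 19.9 in Yki+Tai-IR, 4.53 in Yki and 15.2 in GFP, about 82, 250, 66 and 186 fragments. The levels in Yki+Tai and Yki did not differ beyond counting error, with a ratio of 0.9497 (0.679 to 1.34), and the other neighbours in its order did. An exon of Act57B also overlaps a small nucleolar RNA gene.

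Act87E (FBgn0000046, chromosome 3R, 13425983 to 13428375), another muscle actin gene, had an order of libraries that no other member had. It was at 1.76 FPKM in Yki+Tai, 10.7 in Yki+Tai-IR, 5.46 in Yki and 17.2 in GFP. Each neighbour in that order differed beyond counting error, and Yki+Tai stood at 0.102 times GFP (0.0673 to 0.151). Both actin values carry a limit of the method: the actin genes are near-identical in their coding sequence, and the cytoplasmic actin gene Act5C was at 2854 FPKM in Yki+Tai, 4058 in Yki+Tai-IR, 3886 in Yki and 4773 in GFP. How the authors' counting shared fragments between these copies is not given in the sources used here. An exon of Act87E also overlaps the noncoding RNA gene CR45591 on the opposite strand, and the kit used keeps no strand information.

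The troponin genes were low in Yki+Tai and Yki. up (FBgn0004169, chromosome X, 13593474 to 13602578) encodes troponin T, the subunit that anchors troponin to tropomyosin. It stood at 0.927 FPKM in Yki+Tai, 5.10 in Yki+Tai-IR, 0.754 in Yki and 4.87 in GFP. The values fell into a high pair and a low pair, and within each pair the genotypes did not differ beyond counting error. wupA (FBgn0283471, chromosome X, 18105568 to 18116922) encodes troponin I, the inhibitory subunit. It was at 0.912 FPKM in Yki+Tai, 5.61 in Yki+Tai-IR, 1.41 in Yki and 2.96 in GFP, and Yki+Tai-IR was above GFP at 1.90 times (1.09 to 3.56).

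Tm2 (FBgn0004117, chromosome 3R, 15310193 to 15315197) encodes a muscle tropomyosin, the coiled coil that covers the myosin-binding sites of actin. It was at 0.977 FPKM in Yki+Tai, 4.03 in Yki+Tai-IR, 0.479 in Yki and 1.42 in GFP. Yki+Tai-IR stood apart from the other libraries, and the neighbours among those others did not differ beyond counting error. The related gene Tm1, which also encodes tropomyosins outside muscle, was far more abundant, at 424 FPKM in Yki+Tai, 419 in Yki+Tai-IR, 537 in Yki and 390 in GFP. Tm1 lies 1413 bp from Tm2 on the same strand, and its part in the level of Tm2 was not tested.

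The thick filament genes were highest in Yki+Tai-IR in all cases but bt. Mhc (FBgn0264695, chromosome 2L, 16766566 to 16788766) encodes the muscle myosin heavy chain in 21 annotated transcripts. It was at 0.738 FPKM in Yki+Tai, 1.87 in Yki+Tai-IR, 0.257 in Yki and 0.440 in GFP. Unlike the troponin genes, Mhc was higher in Yki+Tai than in GFP, at 1.68 times, with a lower bound of 1.003. Yki and GFP did not differ beyond counting error, at 0.585 times (0.289 to 1.16).

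Mlc1 (FBgn0002772, chromosome 3R, 27657078 to 27660177) encodes the muscle alkali light chain of myosin. It was at 0.431 FPKM in Yki+Tai, 5.99 in Yki+Tai-IR, 0.452 in Yki and 1.34 in GFP. The values in Yki+Tai and Yki rest on about 4 and 3 fragments, against 33 in Yki+Tai-IR. With a span of 13.9 times between its highest and lowest library, Mlc1 had the widest estimated range of the 10 genes. That rank is not resolved beyond counting error. The interval of Yki+Tai over Yki+Tai-IR, 0.0207 to 0.226, also holds 0.102, the ratio of Yki+Tai over GFP that set the span of Act87E.

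Mlc2 (FBgn0002773, chromosome 3R, 30171438 to 30174551) encodes the regulatory light chain of muscle myosin, and it had the narrowest range, 1.64 times. It was at 9.92 FPKM in Yki+Tai, 13.9 in Yki+Tai-IR, 8.82 in Yki and 8.44 in GFP. Only Yki+Tai-IR was separated from its neighbour in that order, at 1.399 times Yki+Tai (1.17 to 1.67). Its flanking gene CG31028, 230 bp away on the same strand, was at 20.6 FPKM in Yki+Tai, 15.97 in Yki+Tai-IR, 16.9 in Yki and 18.4 in GFP, and its part in the level of Mlc2 was not tested.

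Prm (FBgn0003149, chromosome 3L, 8732858 to 8745310) encodes paramyosin, a core protein of invertebrate thick filaments. It was at 0.286 FPKM in Yki+Tai, 1.10 in Yki+Tai-IR, 0.204 in Yki and 0.766 in GFP, resting on about 5, 14, 3 and 9 fragments. No neighbours in its order differed beyond counting error. bt (FBgn0005666, chromosome 4, 724400 to 776474) encodes projectin, a giant titin-like protein. It was at 0.159 FPKM in Yki+Tai, 0.154 in Yki+Tai-IR, 0.0433 in Yki and 0.126 in GFP. Its long transcript gives these small values about 51, 33, 11 and 26 fragments. Yki stood apart below GFP, and the neighbours among the other 3 libraries did not differ beyond counting error.

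Yki+Tai-IR and Yki differ in the construct against tai and in the yki level, at 0.509 times, so their parts cannot be told apart. Transcript of tai itself stood at 0.916 times. The sarcomere genes were higher in Yki+Tai-IR. All 10 were above Yki, by 1.57 times (Mlc2) to 13.3 times (Mlc1). A gene counted as 2-fold different when its log2(FPKM + 1) values were at least 1 apart, provided that it averaged at least 1 FPKM over the 4 libraries. Of the 10 sarcomere genes 7 passed that filter, and Mhc, Prm and bt did not. Of the 7, 5 were at least 2-fold higher (Act57B, Mlc1, up, wupA and Tm2) and 0 lower, against 3.2% of all 7808 genes higher and 0.922% lower. The median difference of the 7 was 1.77 on that scale, against 0.01 over all genes. With 5 FPKM added in place of 1, only 2 of the 7 and 90 of all 7808 genes passed as higher, since this scale damps low genes.

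On plain FPKM ratios, a rule added after the data were seen, a gene was counted when the ratio was 2-fold or more and its counting interval left out 1. By it 8 of the 10 were higher in Yki+Tai-IR, against 4.87% of 9515 genes averaging at least 0.1 FPKM. The exceptions were Mlc2 and Act87E, whose ratio of 1.96 (1.44 to 2.65) lay just short of 2. The ratios were 4.39 for Act57B (3.32 to 5.83), 6.77 for up (3.19 to 15.1) and 7.25 for Mhc (4.19 to 13.0). They were 8.42 for Tm2 (3.16 to 34.9), 3.98 for wupA (2.00 to 8.65) and 13.3 for Mlc1 (3.98 to 64.7). For Prm, with about 14 against 3 fragments, the ratio was 5.39 (1.503 to 29.2), and for bt it was 3.55 (1.71 to 7.59).

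**Figure D2:**
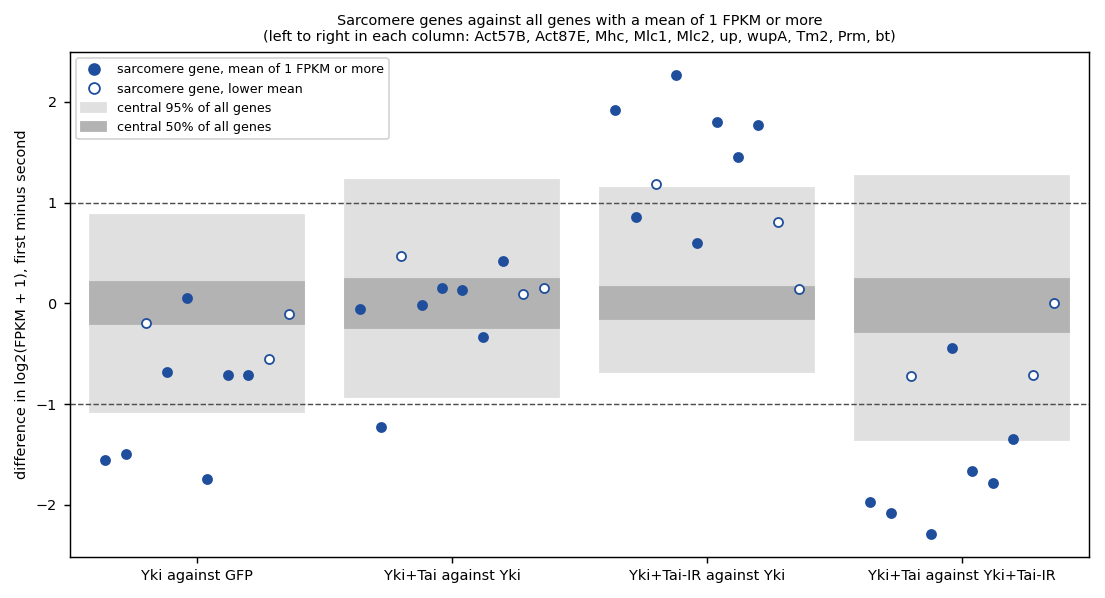
Difference in log2(FPKM + 1) of each sarcomere gene in 4 comparisons, first library minus second, over grey bands for the central 95% and central 50% of 7808 genes. Filled points average 1 FPKM or more, open points less, and dashed lines mark a difference of 1. In Yki+Tai-IR against Yki 5 filled points lie above the upper line, and in Yki+Tai against Yki+Tai-IR 6 lie below the lower line.

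Yki+Tai and Yki+Tai-IR differ in whether tai was added or targeted, and in Yki+Tai yki also stood at 1.77 times Yki+Tai-IR (1.74 to 1.80), so the parts of tai and yki cannot be told apart. Most sarcomere genes were lower in Yki+Tai. Of the 7 genes past the filter 6 were at least 2-fold lower and 0 higher, against 4.43% of all genes lower and 3.71% higher. The exception was Mlc2, at 0.715 times (0.598 to 0.857). The median difference was -1.79, against -0.02 over all genes. By the ratio rule 8 of the 10 were lower, against 5.82% of genes. Ratios were 0.216 for Act57B (0.167 to 0.280), 0.165 for Act87E (0.107 to 0.249) and 0.182 for up (0.0930 to 0.334). They were 0.163 for wupA (0.0668 to 0.330), 0.242 for Tm2 (0.107 to 0.481) and 0.0719 for Mlc1 (0.0207 to 0.226). Mhc was at 0.395 times (0.281 to 0.551), and bt did not differ beyond counting error, at 1.04 times (0.649 to 1.64). Each of the 4 comparisons shares a library with another, so their values are not independent.

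What Tai adds to discs with Yki was read from Yki+Tai against Yki, and here the members divided. Of the 7 genes past the filter 0 were at least 2-fold higher and 1 lower (Act87E), against 3.46% of all genes higher and 2.11% lower. The median difference was -0.02, against -0.002 over all genes. Act87E stood at 0.323 times (0.204 to 0.502), whereas Act57B did not differ beyond counting error. Going the other way, Mhc was at 2.87 times (1.60 to 5.25) and bt at 3.68 times (1.83 to 7.55). By the ratio rule these made 2 of 10 higher, against 5.8% of genes, and 1 of 10 lower, against 2.85%. For up the ratio was 1.23 (0.480 to 3.12) and for Tm2 2.04 (0.624 to 9.06), intervals too wide to separate no difference from a 2-fold difference.

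Yki and GFP differ in the Yki transgene. Genes of the leg disc, given below, also differed between these libraries, summing to 0.714 FPKM in Yki and 139 in GFP. The part of such other tissue in the sarcomere values was not tested. Of the 7 genes past the filter 0 were at least 2-fold higher and 3 lower (Act57B, Act87E and up), against 1.86% of all genes higher and 3.05% lower. The median difference was -0.72, against -0.004 over all genes. Act57B stood at 0.298 times (0.222 to 0.397), Act87E at 0.317 times (0.238 to 0.419) and up at 0.155 times (0.0693 to 0.332). By the ratio rule bt joined them at 0.344 times (0.159 to 0.745), which made 4 of 10 lower against 4.28% of genes. The ratios of wupA, Tm2, Mlc1 and Prm were all under 0.5, but their intervals reached past 1. Mlc2 did not differ beyond counting error, at 1.05 times (0.831 to 1.31). The Yki library enters both this comparison and that of Yki+Tai-IR with Yki, so its low values count in both.

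Set directly against GFP, the Yki+Tai-IR library was not uniformly at the GFP level. Mlc1 was at 4.48 times GFP (1.99 to 12.2), Mhc at 4.24 times (2.63 to 6.89) and Tm2 at 2.84 times (1.34 to 6.03). Mlc2 was at 1.64 times (1.33 to 2.04) and Act57B at 1.31 times (1.07 to 1.58). The ratio of up was 1.05 (0.694 to 1.60), and Act87E was lower than in GFP, at 0.620 times (0.488 to 0.783). The myosin genes Mhc and Mlc1 exceeded GFP by more than either actin gene did. In Yki+Tai against GFP Act57B stood at 0.283 times (0.216 to 0.369), up at 0.191 times (0.0974 to 0.354) and wupA at 0.308 times (0.121 to 0.706). Of the thick filament genes, Mlc1 was at 0.322 times GFP (0.0789 to 1.45), Prm at 0.374 times (0.0940 to 1.19) and Mlc2 at 1.18 times (0.955 to 1.46), intervals that all hold 1, while Mhc was above GFP as given. The ratio of Tm2 was 0.689 (0.253 to 1.64) and that of bt 1.27 (0.772 to 2.11).

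**Figure D3:**
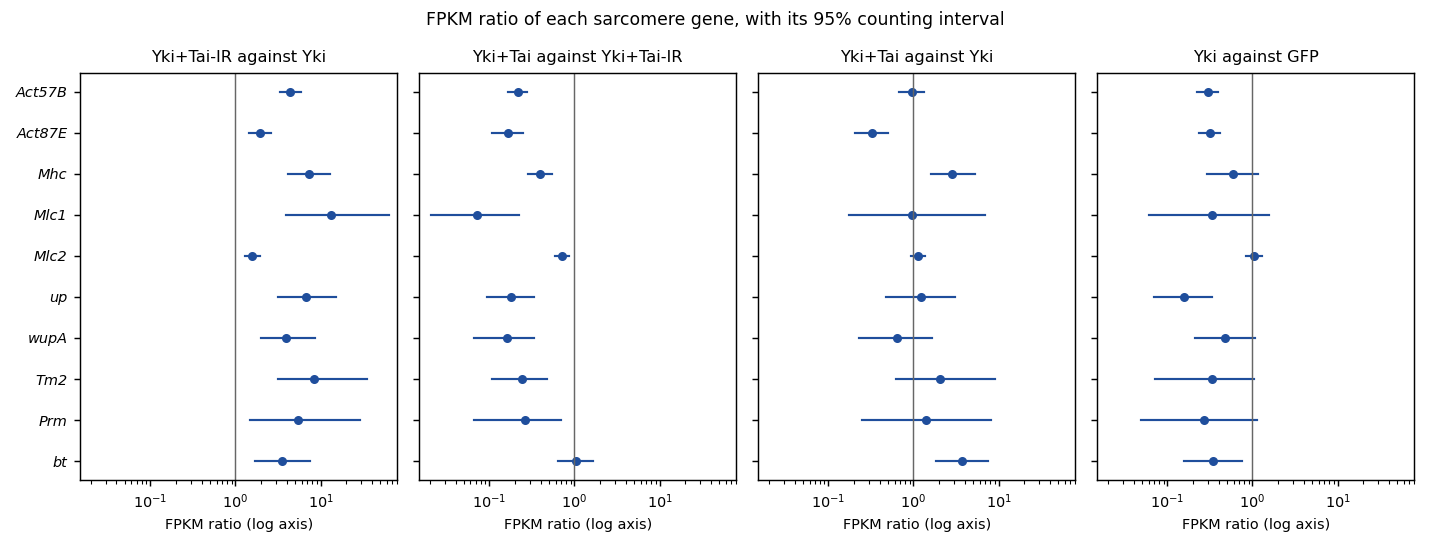
FPKM ratio (log axis) of each sarcomere gene in 4 comparisons, first library over second, with its exact 95% counting interval and a vertical line at 1. All 10 points lie right of the line in Yki+Tai-IR against Yki, and all but bt lie left of it in Yki+Tai against Yki+Tai-IR.

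The genes also differed in their proportions within a library, on the FPKM scale, which is per transcript length. The level of Act57B over that of Act87E was 2.44 in Yki+Tai (1.59 to 3.86), 1.86 in Yki+Tai-IR (1.496 to 2.34), 0.831 in Yki (0.587 to 1.18) and 0.884 in GFP (0.720 to 1.09). The actin pair did not differ beyond counting error in Yki and GFP and was tilted to Act57B in both libraries with a tai transgene. The level of Mlc2 over that of Mhc was 13.4 in Yki+Tai (10.1 to 18.2), 7.43 in Yki+Tai-IR (5.87 to 9.52), 34.3 in Yki (20.2 to 60.4) and 19.2 in GFP (12.1 to 30.8). Mlc2 exceeded its heavy chain severalfold in every library. Mlc1 was nearer to Mhc, at 0.584 times in Yki+Tai (0.171 to 1.75), 3.21 in Yki+Tai-IR (2.08 to 4.76), 1.75 in Yki (0.334 to 6.25) and 3.04 in GFP (1.05 to 6.99). The troponin genes up and wupA did not differ beyond counting error, since each library's interval for up over wupA held 1, with ratios between 0.535 in Yki and 1.65 in GFP. The muscle actins made up 0.164% of the summed FPKM of Act57B, Act87E, Act5C and Act42A in Yki+Tai, 0.610% in Yki+Tai-IR, 0.206% in Yki and 0.560% in GFP.

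**Figure D4:**
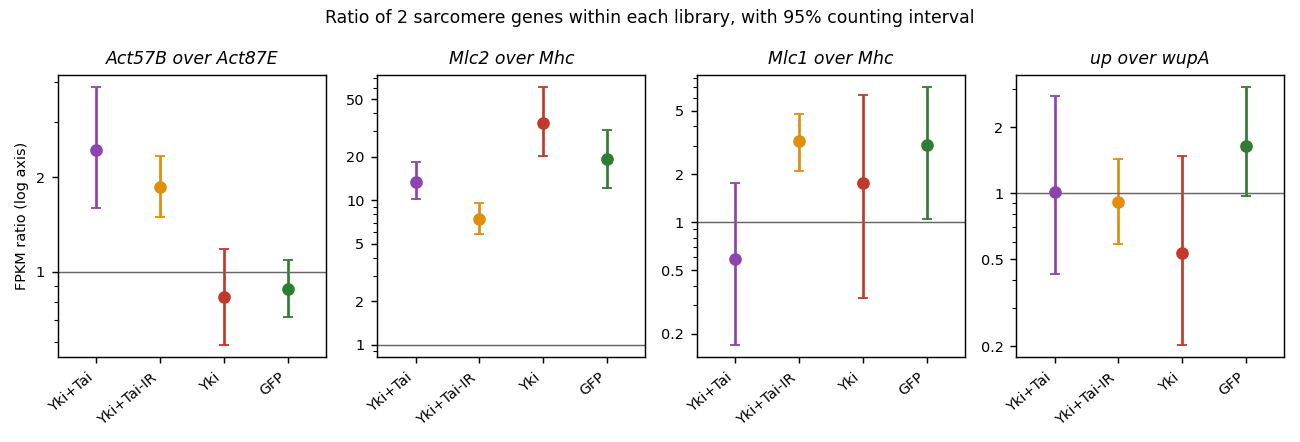
FPKM ratio (log axis) of 4 pairs of sarcomere genes within each library, with exact 95% counting intervals and a line at 1 for equal levels. Act57B exceeds Act87E in Yki+Tai and Yki+Tai-IR, and Mlc2 exceeds Mhc in all 4 libraries.

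Other sarcomere genes, from a list of 28 thin filament, thick filament, Z disc and calcium-handling genes, showed the same contrast in a subset. Of 25 measured, 13 averaged 1 FPKM or more. In Yki+Tai-IR against Yki 5 of the 13 were at least 2-fold higher and 0 lower, against the 3.2% and 0.922% of all genes given above. In Yki+Tai against Yki+Tai-IR 5 were lower, against 4.43% of all genes, and in Yki against GFP 5 were lower, against 3.05%. In both 0 were higher, and in Yki+Tai against Yki 0 passed in either direction. The medians of the 13 were 0.13 in Yki+Tai-IR against Yki, -0.09 in Yki+Tai against Yki+Tai-IR, -0.36 in Yki against GFP and 0.15 in Yki+Tai against Yki. In Yki against GFP that median lay outside the central 50% of all genes, which ran from -0.21 to 0.21. The other medians lay inside it. It ran from -0.15 to 0.17 in Yki+Tai-IR against Yki and from -0.28 to 0.25 in Yki+Tai against Yki+Tai-IR. In Yki+Tai against Yki it ran from -0.24 to 0.24. TpnC73F, Mf, Zasp66, Mp20 and Mlp60A made up all 5 in each comparison where 5 genes passed, and those comparisons share libraries. TpnC73F, a troponin C gene, was at 2.61 FPKM in Yki+Tai, 9.15 in Yki+Tai-IR, 1.85 in Yki and 9.12 in GFP. Mf, which encodes the thick filament protein myofilin, was at 0.506 FPKM in Yki+Tai, 4.08 in Yki+Tai-IR, 0.449 in Yki and 3.12 in GFP. TpnC73F and Mf thus had a high pair and a low pair of libraries, like up. So did Mp20 and Zasp66, given next, whose counting intervals within each pair also held 1. Mp20, which encodes a muscle protein of the calponin family, was at 2.37 FPKM in Yki+Tai, 8.21 in Yki+Tai-IR, 0.894 in Yki and 6.21 in GFP. The Z disc gene Zasp66 was at 0.977 FPKM in Yki+Tai, 3.29 in Yki+Tai-IR, 0.729 in Yki and 4.95 in GFP. Mlp60A, a muscle LIM protein gene, was at 0.357 FPKM in Yki+Tai, 3.75 in Yki+Tai-IR and 1.66 in GFP and was listed at 0 in Yki. Mlp60A rests on about 1, 7, 0 and 3 fragments. That these 5 genes were low in Yki, and high in Yki+Tai-IR beside Yki and Yki+Tai, is fixed by how they were chosen. Summed over the 5 genes, a set named after its values were seen, the level was 0.272 times GFP in Yki+Tai, 1.14 times in Yki+Tai-IR and 0.156 times in Yki.

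The other 8 of the 13, both abundant and scarce, did not pass 2-fold on that scale in any of the 4 comparisons. By the ratio rule Mlp84B, a muscle LIM protein gene below the filter, was also higher in Yki+Tai-IR against Yki and lower in Yki+Tai against Yki+Tai-IR. The giant Z disc protein gene sls was at 5.12 FPKM in Yki+Tai, 4.90 in Yki+Tai-IR, 5.21 in Yki and 5.72 in GFP. Strn-Mlck, which encodes a muscle kinase of the titin family, was at 4.56 FPKM in Yki+Tai, 4.84 in Yki+Tai-IR, 4.02 in Yki and 4.92 in GFP. Tm1, tmod, Actn, Zasp52 and Ca-P60A, whose products also serve cells outside muscle, all stood above 40 FPKM in every library and differed by less than 2-fold in these comparisons. Genes tied to the adult flight muscle were near 0. Act88F, the flight muscle actin gene, was at 0.351 FPKM in Yki+Tai, 0.176 in Yki+Tai-IR, 0.153 in Yki and 0.0907 in GFP, which is about 6, 2, 2 and 1 fragments. fln, which encodes the flight muscle protein flightin, was listed at 0 in all libraries but Yki+Tai, and TpnC4 was listed at 0 in all but GFP.

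Markers of other cells moved with some of these differences. In Yki+Tai 4 of 7 myoblast markers (twi, Him, htl and stumps) were at least 2-fold below Yki+Tai-IR, against 4.43% of all genes. In Yki+Tai-IR 0 were 2-fold above Yki, against 3.2%, and in Yki 4 (twi, Him, stumps and zfh1) were below GFP, against 3.05%. In Yki+Tai against Yki 0 of the 7 passed in either direction, with a median of -0.63, where the sarcomere median was -0.02. By the ratio rule 1 of the 7 was lower there, against 2.85% of genes. The myoblast determination gene twi was at 3.81 FPKM in Yki+Tai, 11.7 in Yki+Tai-IR, 6.73 in Yki and 22.0 in GFP. It therefore stood at 0.530 times GFP in Yki+Tai-IR (0.434 to 0.643), where the sarcomere sum stood at 1.29 times, or at 1.85 times without the actin genes. Him, which encodes an inhibitor of Mef2 in myoblasts, was at 3.51 FPKM in Yki+Tai, 12.4 in Yki+Tai-IR, 7.55 in Yki and 18.1 in GFP. The FGF receptor gene htl was at 2.86 FPKM in Yki+Tai, 7.12 in Yki+Tai-IR, 5.04 in Yki and 9.66 in GFP, and stumps, which encodes its adaptor, kept the same order of libraries. Mef2, which encodes a transcription factor of muscle differentiation, was at 15.7 FPKM in Yki+Tai, 15.7 in Yki+Tai-IR, 14.6 in Yki and 19.8 in GFP. The whole myoblast list, dominated by Ama, summed to 219 FPKM in Yki+Tai, 209 in Yki+Tai-IR, 222 in Yki and 341 in GFP, and no member was at 0.

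Leg disc genes, which mark a neighbouring tissue, summed over 4 genes to 31.4 FPKM in Yki+Tai, 109.6 in Yki+Tai-IR, 0.714 in Yki and 139 in GFP, and fd96Cb and fd96Ca were listed at 0 in Yki. All 4 (fd96Cb, Sp1, AP-2 and fd96Ca) were at least 2-fold above Yki in Yki+Tai-IR, against 3.2% of all genes. They were below Yki+Tai-IR in Yki+Tai, against 4.43%, and below GFP in Yki, against 3.05%. They were also above Yki in Yki+Tai, against 3.46%, where the sarcomere median was -0.02. Sp1 was at 12.4 FPKM in Yki+Tai, 27.9 in Yki+Tai-IR, 0.144 in Yki and 43.9 in GFP. Of 8 hemocyte markers 6 averaged 1 FPKM or more, and in Yki+Tai 4 of these 6 (nimC1, Pxn, Hml and He) were above Yki+Tai-IR and also above Yki. Over all genes 3.71% were higher in the first of these comparisons and 3.46% in the second. The phagocytic receptor gene nimC1 was at 7.70 FPKM in Yki+Tai, 0.719 in Yki+Tai-IR, 0.341 in Yki and 0.539 in GFP, so the direction between Yki+Tai and Yki+Tai-IR was opposite to that of the sarcomere genes. The hemocyte list summed to 228 FPKM in Yki+Tai, 135 in Yki+Tai-IR, 175 in Yki and 193 in GFP, with none at 0. Most of each sum was Ppn, at 165 FPKM in Yki+Tai, 97.6 in Yki+Tai-IR, 130 in Yki and 164 in GFP. In Yki+Tai Ppn stood at 1.01 times GFP (0.981 to 1.03), whereas nimC1 stood at 14.3 times (7.02 to 33.3). The 6 fat body markers summed to 11.1 FPKM in Yki+Tai, 20.7 in Yki+Tai-IR, 16.2 in Yki and 21.8 in GFP, with none at 0. In Yki+Tai 1 of the 6 was 2-fold below Yki+Tai-IR on the log2(FPKM + 1) scale (Lsp1alpha) and 3 were by the ratio rule (with Lsp1beta and Fbp2). Over all genes these shares were 4.43% and 5.82%. The larval serum protein gene Lsp1alpha was at 0.0710 FPKM in Yki+Tai, 1.97 in Yki+Tai-IR, 1.62 in Yki and 0.605 in GFP. The wing disc markers nub, vg, ap, rn, pdm2 and sd summed to 370 FPKM in Yki+Tai, 369.7 in Yki+Tai-IR, 457 in Yki and 380.3 in GFP. The part of these other cells in the sarcomere values was not tested.

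**Figure D5:**
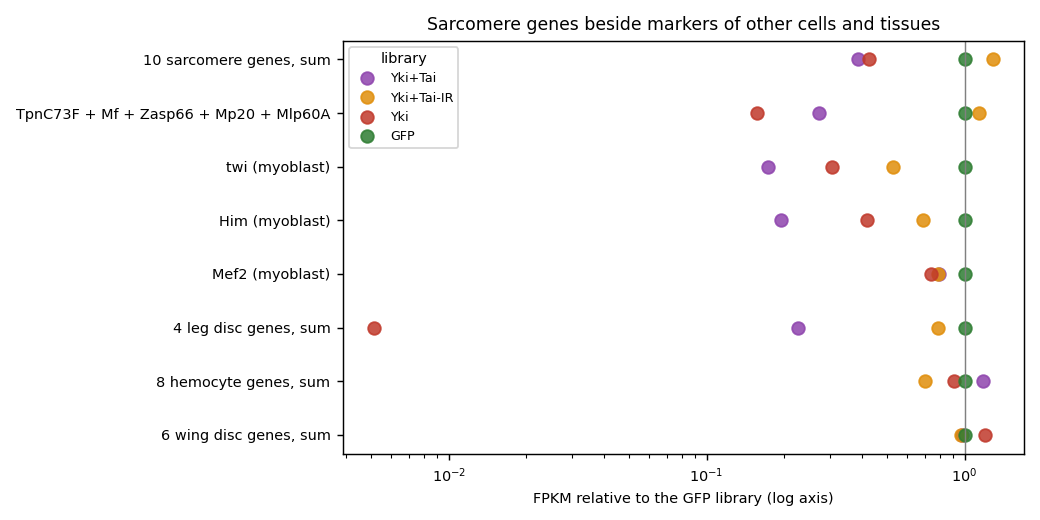
FPKM relative to the GFP library (log axis) for the sum of the 10 sarcomere genes, 5 further sarcomere genes, myoblast genes and summed markers of leg disc, hemocytes and wing disc, coloured by library. The sarcomere sum is at 0.387 in Yki+Tai, 1.29 in Yki+Tai-IR and 0.424 in Yki, while twi is below 1 in all 3. The hemocyte sum is mostly Ppn.

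The genes whose pattern was most like the sarcomere genes were found among 6819 genes averaging 5 FPKM or more. Likeness was the root mean square difference from the mean profile of the 10 members, in log2(FPKM + 1) centred over the 4 libraries, a description over 4 libraries only. The closest were Obp83g (0.0996), comm2 (0.153), CG6426 (0.164), Pdk (0.168), CG3770 (0.174) and ImpL2 (0.186), followed by Cyp6d4, GstE5, CG5535 and Gapdh1 at 0.193 to 0.213. Obp83g, an odorant-binding protein gene, was at 6.34 FPKM in Yki+Tai, 15.3 in Yki+Tai-IR, 5.92 in Yki and 9.48 in GFP. ImpL2, which encodes a secreted binding protein of insulin-like peptides, was at 28.8 FPKM in Yki+Tai, 75.2 in Yki+Tai-IR, 35.9 in Yki and 42.8 in GFP. The closest of the listed sarcomere genes in this pool was TpnC73F, at rank 166 with 0.382. Set against single members, TpnC73F was the nearest gene to up (0.0779) and also lay close to Act57B (0.198). Adding 1 flattens the members that average below 1 FPKM (Mhc, Prm and bt) and with them the mean profile, which spanned 1.30. Ranks by likeness to that mean carry this limit.

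Among the members, Act87E lay farthest from the mean profile, at 0.70, and bt was next at 0.52, while wupA lay closest at 0.17. The nearest profiles to Act87E were those of CG1273 (0.139) and of the proneural genes ac (0.156) and sc (0.182). ac was at 5.65 FPKM in Yki+Tai, 25.6 in Yki+Tai-IR, 15.1 in Yki and 33.3 in GFP, the same order of libraries as Act87E. The myoblast markers twi, Him, htl and stumps and the cytoplasmic actin gene Act5C, given above, also had that order. For bt the nearest profiles were flat genes, and its own range on the log2(FPKM + 1) scale was 0.15. All its values lay far below 1 FPKM, so adding 1 flattens its profile by construction. In plain FPKM its span was 3.68 times. Its distance from the mean profile carries the same limit.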

How the data were processed

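Per the labels' protocols, rRNA-depleted total RNA (4 µg) went into TruSeq RNA version 2 libraries, a kit that does not mark strand. The authors deposited FPKM values per gene. The submitters' processing notes name the dm6 build and, as tools, Cuffdiff 2.2.1, TopHat2 2.0.12 and CASAVA 1.4. Their gene annotation and options are not stated there.

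FPKM was compared as log2(FPKM + 1) over 7808 genes averaging 1 FPKM or more, without 280 small-RNA genes, and a difference of 1 counted as 2-fold. Of 13990 file symbols 13734 matched Ensembl release 115 (BDGP6, dm6 coordinates), 10529 of them by current symbol. For low, single-transcript protein-coding genes, the depth was sought at which values became whole fragments, with 210 nt, the best of the offsets tried, taken off the length. At the best depth 70.6% to 74.0% of 1133 to 1287 values came out whole (tolerance 0.08), against a median of 9.92% to 11.2% over other trial depths. Fragments were taken on the shortest annotated transcript, which widens intervals. Ratios carry exact Clopper-Pearson intervals at 95%, and levels exact Poisson intervals. A value under 3 fragments is not resolved, 0.134 to 0.208 FPKM on 2 kb. Exact zeros can be failed estimates: 97 genes had a 0 beside another library's value of 10 FPKM or more.

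The members and gene lists were chosen with earlier results of these data known. The rule for named genes took all members, yki and tai as label checks, the up to 4 genes with the largest range of each list, and the 10 nearest profiles. Other genes, named as examples, were picked after their values were seen. TpnC41F, Zasp67 and Msp300 of the sarcomere list had no matching symbol. The sequence of the members is not shown. The counting, interval and depth steps were tested on simulated data. Alternatives were pseudocounts of 0.1 and 5, filters of 5 FPKM and none, scaling all libraries to equal FPKM sums or by a median ratio, and, added later, the ratio rule and leaving out the actin genes. The software was pandas 2.3.3, scipy 1.17.1 and numpy 2.4.6 under Python 3.11.15, with matplotlib 3.10.9 for plots.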

Additional observations from a re-analysis of the deposited data

How the results depend on the processing

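Both rescalings left all 12 summary values (the counts of sarcomere genes at least 2-fold higher or lower, and their median, in 4 comparisons) within 1.5 times of those reported and on the same side of 0. With a pseudocount of 0.1, 6 of the 7 genes were at least 2-fold below GFP in Yki (median -1.39), against 346 of 7808 genes, and the median of Yki+Tai against Yki was -0.055. With a pseudocount of 5, 2 genes were at least 2-fold above Yki in Yki+Tai-IR and 3 below Yki+Tai-IR in Yki+Tai, with medians of 0.73 and -0.84. Over all 7808 genes these counts were 90 and 149. The same setting gave 0 sarcomere genes below Yki in Yki+Tai, against 66 of all 7808 genes, with a median of -0.0055. In Yki against GFP it gave a median of -0.31. With a filter of 5 FPKM only Act57B, Act87E and Mlc2 remained, with 1 above Yki in Yki+Tai-IR (median 0.86) and 2 below Yki+Tai-IR in Yki+Tai. Over all 6822 genes past that filter these counts were 100 and 200. Medians were then -1.50 in Yki against GFP and -0.061 in Yki+Tai against Yki. The median of Yki+Tai against Yki turned to 0.12 with no filter, where Mhc, Prm and bt enter, and to 0.14 without the actin genes. By the ratio rule 2 of the 10 genes were at least 2-fold above their Yki level in Yki+Tai, against 5.8% of genes, while Yki+Tai-IR had 8 such genes, against 4.87%. Over all genes the counts moved with the pseudocount: those above Yki in Yki+Tai-IR numbered 90 with 5 added and 250 with 1 added. A larger pseudocount shrinks the differences of low genes by construction, and the cause of the other shifts was not tested. Depth limits Mlc1, Prm and Tm2 most, at about 3 to 4 fragments in Yki. No paired analysis was possible because each genotype has 1 library.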

Other observations

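The non-muscle counterparts of the sarcomere genes were abundant. Of Act5C, Act42A, zip, sqh and Mlc-c, 0 of 5 were at least 2-fold higher or lower in any of the 4 comparisons. The non-muscle myosin heavy chain gene zip was at 339.7 FPKM in Yki+Tai, 207 in Yki+Tai-IR, 295 in Yki and 301 in GFP, so its lowest library was the one in which Mhc was highest. The regulatory light chain gene sqh was at 347 FPKM in Yki+Tai, 255 in Yki+Tai-IR, 276 in Yki and 288 in GFP. The essential light chain gene Mlc-c was at 234 FPKM in Yki+Tai, 278 in Yki+Tai-IR, 291 in Yki and 239 in GFP.

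Myoblast fusion genes were measured too. Of 9 listed, 8 averaged 1 FPKM or more, and 1 of these, hbs, was at least 2-fold below GFP in Yki on the log2(FPKM + 1) scale, while the ratio rule called 2 of the 9. Over all genes these shares were 3.05% and 4.28%. hbs, an immunoglobulin-family adhesion gene, was at 5.67 FPKM in Yki+Tai, 11.1 in Yki+Tai-IR, 5.998 in Yki and 23.0 in GFP. In the other 3 comparisons 0 of the 8 passed in either direction. The muscle regulators Mef2, mbl and how had 0 of 3 past 2-fold in any of the 4 comparisons. Tracheal markers had 0 of 6 past 2-fold in every comparison but Yki against GFP, on the log2(FPKM + 1) scale, where the transcription factor gene dys was at 2.48 FPKM in Yki and 8.13 in GFP. That made 1 of 6 lower, against 3.05% of all genes. By the ratio rule the FGF receptor gene btl was also lower in Yki+Tai, at 0.452 times Yki+Tai-IR (0.316 to 0.644), the direction of most sarcomere genes. It was 1 of 5 tracheal genes under that rule, against 5.82% of genes. The chitin-binding protein gene Gasp was at 202 FPKM in Yki+Tai, 206 in Yki+Tai-IR, 120 in Yki and 90.9 in GFP. The tracheal list summed to 895 FPKM in Yki+Tai, 714 in Yki+Tai-IR, 574 in Yki and 474 in GFP, so its sums did not follow those of the sarcomere genes. Of the neuron markers only elav averaged 1 FPKM or more, at 5.96 FPKM in Yki+Tai, 8.48 in Yki+Tai-IR, 9.86 in Yki and 9.32 in GFP.

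Arginine kinase, an energy-buffering enzyme of muscle and other tissues encoded by Argk, was at 402 FPKM in Yki+Tai, 245 in Yki+Tai-IR, 362 in Yki and 576 in GFP. Its lowest level lay in the Yki+Tai-IR library, where 8 of the 10 sarcomere genes had their highest.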
